A study of Mus musculus with 17 samples.

Results

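The study has 2 control groups of mouse fetal liver cells that carry the same guide against Gata1 and differ in how long doxycycline was given: a control hairpin kept on the drug for 10 days (sh-ctrl) and a luciferase transgene kept on it for 48 h (LUC). All 3 sh-ctrl and all 3 LUC libraries were set side by side, 6 of the 17 samples of the series. The other 8 Gata1s libraries stayed outside the main test and served for the scaling of levels, an alternative fit and values beside them. Per the labels, both groups were taken from fetal livers at E12.5 to E13.5, from a Rosa26 mouse strain on a B6J background in which the CAG promoter drives Cas9 and EGFP, and both carried the guide sgGata1 as first transgene and doxycycline at 1 µg/mL. The other Gata1s groups were Arid3a (an Arid3a transgene, 48 h, 3 libraries), shArid3a (a hairpin against Arid3a, 10 days, 2 libraries) and miR-125b (a microRNA, 10 days, 3 libraries). The LUC and Arid3a counts stand in one deposited table and the sh-ctrl, shArid3a and miR-125b counts in another, so doxycycline time, second transgene and table change together and cannot be told apart. The labels name no embryo, culture or clone behind a library, so p-values measure only the spread between these libraries, which may be technical.

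GATA1 is the transcription factor that drives red cell and megakaryocyte formation, and Gata1s is the short form that lacks the amino-terminal activation domain. Cells with the short form of GATA1 yield immature megakaryocytic cells that keep dividing, the state known from the leukaemia of Down syndrome. Fetal liver is the main site of blood formation in the embryo, and its progenitors can give megakaryocytes, the cells that shed platelets, as well as red cells, mast cells, macrophages and neutrophils. A luciferase transgene and a control hairpin are both meant as neutral inserts.

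Library totals ran from 31339238 to 38678649 counts in the LUC group and from 31992089 to 36030379 in the sh-ctrl group. Levels are given as CPM, counts relative to the library's scaled total, scaled by TMM over the 14 Gata1s libraries. All 5 defining markers of megakaryocytes were above 1 CPM in all 6 libraries, at unequal levels. Gp1bb was at 31.1, 36.0 and 26.5 CPM in sh-ctrl and at 48.8, 61.0 and 60.0 CPM in LUC. Itga2b, the integrin alphaIIb chain, stood at 1760, 1460 and 1650 CPM in sh-ctrl replicates 1 to 3 and at 1080, 1120 and 1250 CPM in LUC replicates 1 to 3. Of 32 defining markers of macrophages, neutrophils, eosinophils, stem cells, B or T cells, dendritic cells, hepatocytes, endothelium and stroma, 22 were under 1 CPM in all 6 libraries. Slc4a1, Ly6g, Cd3e, Hnf4a, Cdh5, Col3a1 and Pdgfra had no count in any of the 6. The library LUC replicate 3 stood apart for neutrophil markers: the 5 of them summed to 55.5 CPM there, led by S100a8 (26.4 CPM) and Ltf (20.4 CPM), and to at most 0.754 CPM in the other 5 libraries. The Y-linked gene Eif2s3y was also uneven, at 49.8 CPM in sh-ctrl replicate 1, at 10.4 CPM in LUC replicate 3 and at most 2.80 CPM in the others. The sh-ctrl libraries differed more among themselves than the LUC libraries: the median absolute log2 difference between a pair of libraries was 0.263 to 0.295 within sh-ctrl, 0.108 to 0.153 within LUC and 0.321 to 0.391 between the groups. In bulk libraries, fewer cells of a type and less RNA per cell cannot be told apart.

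Most genes had a like level in both controls. Of the 13399 genes that passed the count filter, 8718 (65.1%) had a 95% interval of the log2 fold change within -1 and 1. Among the 9011 genes whose average log2 CPM was 3 or more the share was 89%, or 8023 genes. Arid3a, the DNA-binding protein after which the Arid3a and shArid3a transgenes are named, was among them: it stood at 48.2, 60.6 and 61.8 CPM in sh-ctrl and at 61.1, 58.0 and 63.0 CPM in LUC. Its groups overlapped, and the 95% interval of its log2 fold change ran from -0.34 to 0.17 (adjusted p = 0.643). In the other groups Arid3a was at 51.8, 68.3 and 73.2 CPM in Arid3a, overlapping LUC. It was at 21.8 and 20.5 CPM in shArid3a and at 7.8, 10.5 and 10.7 CPM in miR-125b. Gata1 itself was at 338, 476 and 577 CPM in sh-ctrl and at 292, 311 and 290 CPM in LUC. Every sh-ctrl library lay above every LUC library for Gata1, with a log2 fold change of 0.65 ± 0.17 (SE, n = 3 and 3) and an adjusted p of 0.033 by edgeR's quasi-likelihood test, but the call held in only 1 of the 6 fits that leave out a library (highest adjusted p = 0.119, without LUC replicate 1).

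The most abundant nuclear transcripts per kilobase included genes of unequal behaviour. Eef1a1, the translation elongation factor, had 3980 CPM per kilobase in sh-ctrl and 4060 in LUC, and its log2 fold change was -0.02 ± 0.11. The interferon-induced membrane protein gene Ifitm1 had a log2 fold change of 0.25 ± 0.18 (adjusted p = 0.375). Tmsb4x, the actin-binding thymosin, was at 4250, 3580 and 3430 CPM in sh-ctrl and at 2650, 2460 and 2390 CPM in LUC. For Tmsb4x the groups did not overlap and the log2 fold change was 0.60 ± 0.12 (adjusted p = 0.0121, but 0.0742 without LUC replicate 3).

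At an adjusted p under 0.05, 2518 genes (18.8% of those tested) differed, among them 1317 of the genes of like level, whose differences were small. In sh-ctrl 1447 of them (10.8%) were higher and 1071 (7.99%) lower, a share of 57.5% higher. Scaling by library totals in place of TMM moved the median of all genes from 0.0119 to -0.109 on the log2 scale and the split to 1011 higher and 1926 lower (34.4% higher), so the sign of a small fold change depends on the scaling. Each LUC library carried much of the test's precision: 700, 648 and 779 genes were called without LUC replicates 1, 2 and 3, against 2589, 2956 and 2385 without sh-ctrl replicates 1, 2 and 3. The groups did not overlap for 5414 genes (40.4%). A large difference was defined as a call with an absolute log2 fold change of at least 1 and no overlap, which 727 genes (5.43%) met, 522 higher and 205 lower in sh-ctrl. Of these, 259 had an average log2 CPM of 3 or more, 212 higher and 47 lower. For 276 genes the 95% interval lay wholly beyond 1 or -1, and a test against a log2 fold change of 1 (glmTreat) called 42. No gene had at least 100 counts in every library of one group and at most 3 in every library of the other.

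**Figure D1:**
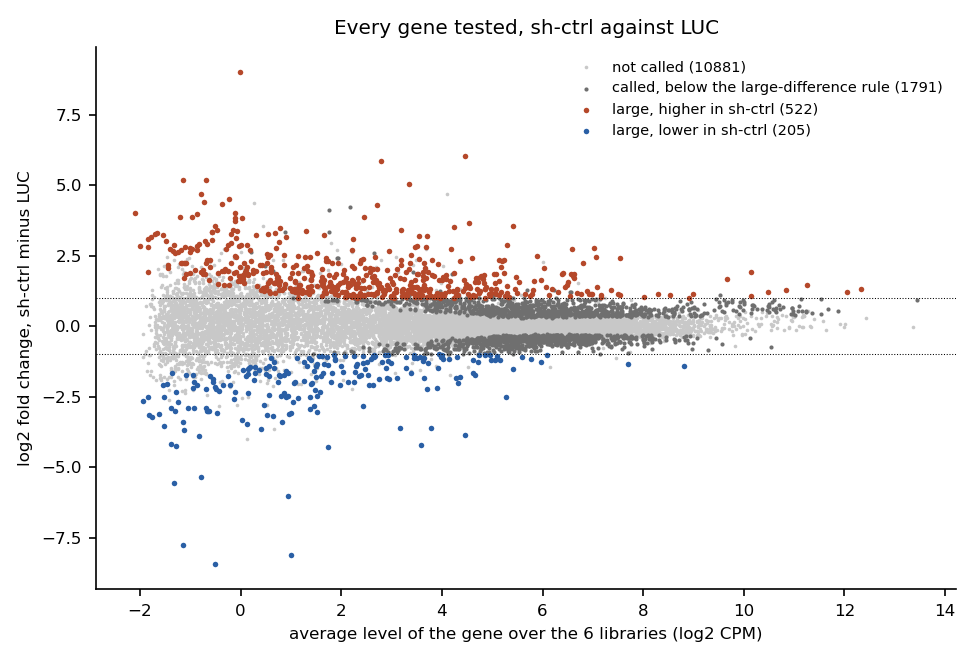
Log2 fold change (sh-ctrl minus LUC, y axis) of each of the 13399 genes tested against its average level (log2 CPM, x axis). Coloured points are the 727 large differences, 522 higher in sh-ctrl and 205 lower, and the dotted lines mark log2 fold changes of 1 and -1.

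Genes of glycolysis were higher as a group in the 10-day culture. Of 20 tested, 12 were called higher and 0 lower (60% called, beside 18.8% of all genes). All 20 fold changes were above 0, and the median log2 fold change was 0.952 against 0.0119 over all genes. With 1 library left out, 10 or 11 of the 20 were called. Aldoc and Aldoa, the aldolases that split fructose bisphosphate, and Pkm, the pyruvate kinase that ends the pathway, are shown with their start regions because they were called and hold the motif described here. ACGTG, or CACGT on the other strand, is the core of the element that hypoxia-inducible factors are known to bind, and it also lies inside the E-box CACGTG, which counts for both strands. Windows of 300 bases (250 before to 50 after a start, RefSeq, GRCm38.p6) were read, with matches in capitals.
Aldoc, chr11:78322823-78323122, plus strand: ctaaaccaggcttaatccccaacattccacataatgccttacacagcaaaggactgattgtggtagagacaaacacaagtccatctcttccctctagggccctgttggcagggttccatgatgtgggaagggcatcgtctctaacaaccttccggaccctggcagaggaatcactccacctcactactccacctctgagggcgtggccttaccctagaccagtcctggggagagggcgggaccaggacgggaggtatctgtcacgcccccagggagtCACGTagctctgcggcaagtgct
Aldoa, chr7:126799205-126799504, minus strand: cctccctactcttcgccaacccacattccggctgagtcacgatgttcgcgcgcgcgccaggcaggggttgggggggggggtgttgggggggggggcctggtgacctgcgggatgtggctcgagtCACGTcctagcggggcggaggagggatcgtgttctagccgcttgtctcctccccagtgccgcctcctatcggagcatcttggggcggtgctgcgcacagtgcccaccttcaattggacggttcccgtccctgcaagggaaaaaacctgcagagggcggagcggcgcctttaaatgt
Pkm, chr9:59656977-59657276, plus strand: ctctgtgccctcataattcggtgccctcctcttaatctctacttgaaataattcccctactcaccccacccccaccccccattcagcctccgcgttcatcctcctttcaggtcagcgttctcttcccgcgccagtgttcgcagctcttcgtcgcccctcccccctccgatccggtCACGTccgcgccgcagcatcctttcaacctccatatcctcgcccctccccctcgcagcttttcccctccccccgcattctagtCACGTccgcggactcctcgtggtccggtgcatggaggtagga

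The motif lay in at least 1 window of 5 of the 12 glycolysis genes called, of 12 of the 19 tested that have a window, and of 5886 of 27025 genes of the whole table (21.8%). A match is a description of these letters only. Aldoc was at 63.0, 60.6 and 71.8 CPM in sh-ctrl and at 14.9, 4.96 and 7.4 CPM in LUC. All 3 sh-ctrl libraries were close together and above all LUC libraries, LUC replicate 1 being the highest of its group, and the log2 fold change was 2.86 ± 0.34 (adjusted p = 0.00249 by edgeR's quasi-likelihood test, but 0.0652 for Aldoc with all 14 Gata1s libraries in the fit). Aldoa was at 2840, 2240 and 2260 CPM in sh-ctrl and at 1200, 928 and 930 CPM in LUC. The order of the libraries was the same as for Aldoc in LUC, and the log2 fold change was 1.28 ± 0.15 (adjusted p = 0.00226). Pkm was at 3070, 2870 and 2510 CPM in sh-ctrl and at 1630, 1330 and 1380 CPM in LUC, again without overlap. Its log2 fold change was 0.97 ± 0.12 (adjusted p = 0.00307). The enolase Eno1 (log2 fold change 0.96 ± 0.12), the glucose phosphate isomerase Gpi1 (0.93 ± 0.11) and the muscle enolase Eno3 (0.98 ± 0.11) were higher by about as much. Ldha, lactate dehydrogenase A, moved least of the genes called, at 0.40 ± 0.12 (adjusted p = 0.0458), and held its call in only 1 of the 6 fits that leave out a library (highest adjusted p = 0.187, without LUC replicate 3). The level of Gapdh, named after its values were seen, was uneven: 30.5, 150 and 240 CPM in the LUC libraries and 121, 61.7 and 617 CPM in sh-ctrl, and it did not pass (adjusted p = 0.478). Gapdh has near-identical pseudogenes, so its reads may be split.

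**Figure D2:**
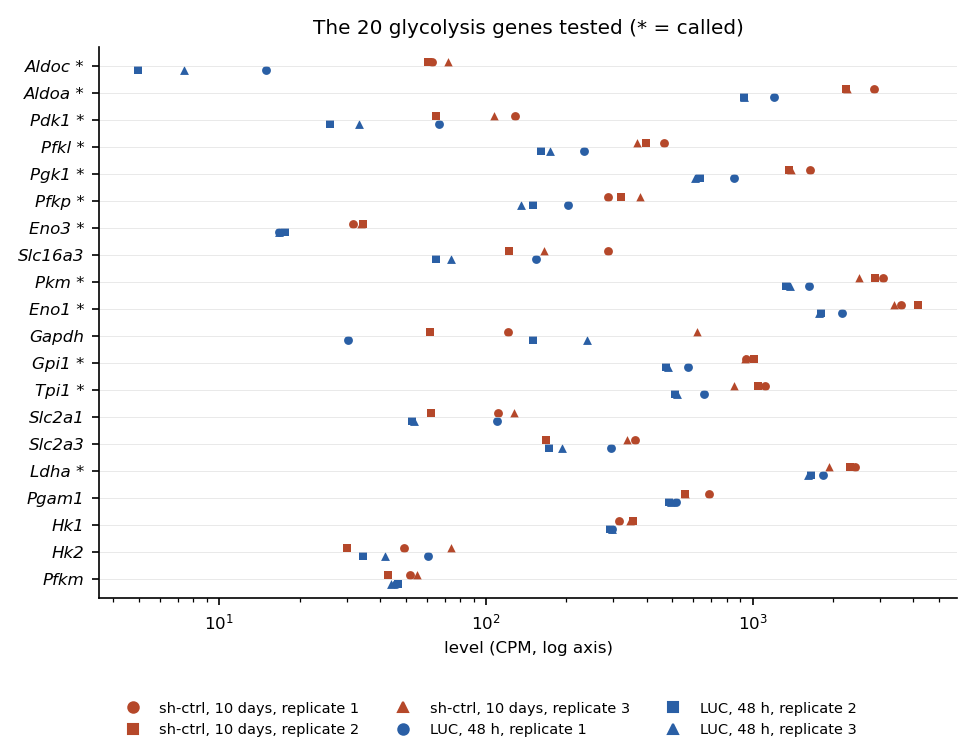
Level (CPM, log axis) of the 20 glycolysis genes tested in each of the 6 libraries, ordered by fold change. Red marks sh-ctrl and blue LUC, the marker shape gives the replicate, and an asterisk marks the 12 genes called.

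The hypoxia list moved less uniformly. Of its 11 genes, 2 were higher and 1 was lower by the test (27.3% called, beside 18.8% of all genes). Vegfa, the endothelial growth factor, was at 139, 66.0 and 164 CPM in sh-ctrl and at 66.1, 45 and 51.6 CPM in LUC. The sh-ctrl replicate 2 overlapped LUC replicate 1, and Vegfa was called (log2 fold change 1.20 ± 0.30, adjusted p = 0.0258) but not without LUC replicate 2 (adjusted p = 0.0972). Bnip3, a mitophagy receptor, was at 201, 75.0 and 162 CPM in sh-ctrl and at 106, 17.5 and 29.5 CPM in LUC and did not pass (adjusted p = 0.106). The bifunctional enzymes that set fructose bisphosphate levels went opposite ways: Pfkfb4 had a log2 fold change of 0.94 ± 0.14 (adjusted p = 0.00423) and Pfkfb3 of -0.49 ± 0.10 (adjusted p = 0.0156, but 0.0879 without LUC replicate 2). The list's summed level was 767, 407 and 872 CPM in sh-ctrl and 565, 286 and 328 CPM in LUC, so that LUC replicate 1 lay above sh-ctrl replicate 2.

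The 12 largest rises joined genes of unrelated roles. Clca3a1, a member of the calcium-activated chloride channel regulator family, was at 6.34, 28.9 and 87.3 CPM in sh-ctrl and at 0.880, 0.405 and 0.607 CPM in LUC. Every sh-ctrl library was above every LUC library, but sh-ctrl replicate 1 lay far below the other two, and the log2 fold change of 6.04 had an SE of 0.93 (adjusted p = 0.0054). Thsd4, a matrix protein with thrombospondin repeats, followed with 3.41, 20.5 and 32.0 CPM against 0.586, 0.0238 and 1.16 CPM (log2 fold change 5.02 ± 0.99). With 22, 1 and 40 counts in LUC, Thsd4 passed the count filter only through sh-ctrl, so no test is given. Its call still counts among those above. Sh-ctrl replicate 1 was again the lowest of its group. Fbxo2, which recognises sugar chains for a ubiquitin ligase, was at 16.0, 46.6 and 59.6 CPM against 3.01, 3.77 and 2.86 CPM (3.67 ± 0.44). Perp, a p53 target of cell junctions, was at 8.54, 47.2 and 42.8 CPM against 3.07, 2.03 and 3.58 CPM (3.52 ± 0.57).

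Prtn3, the proteinase 3 of neutrophil granules, was at 49.0, 73.4 and 102 CPM in sh-ctrl and at 4.98, 5.08 and 9.45 CPM in LUC. The groups were wholly apart, with a log2 fold change of 3.54 ± 0.33 (adjusted p = 0.00112). Of 18 neutrophil granule genes listed, 5 passed the count filter and Prtn3 alone was called (20%, near the 18.8% of all genes). Mpo, the myeloperoxidase, was at 0.603, 0.0315 and 0 CPM in sh-ctrl and at 0.0267, 0.334 and 7.78 CPM in LUC, where replicate 3 was high for the neutrophil markers too. Iqcg (3.41 ± 0.43), the small RNA pathway gene Tdrkh (3.20 ± 0.41), Mst1 (2.82 ± 0.37), a growth factor related to plasminogen, and the semaphorin receptor Plxnd1 (2.79 ± 0.31) also had no overlap, and Aldoc and the globin genes Hbb-bt and Hbb-bs complete the 12. Of the 12, 6 overlap another annotated gene (Clca3a1, Thsd4, Prtn3, Iqcg, Tdrkh and Mst1), and use of strand in counting is not given in the sources used here, so their reads may be shared.

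**Figure D3:**
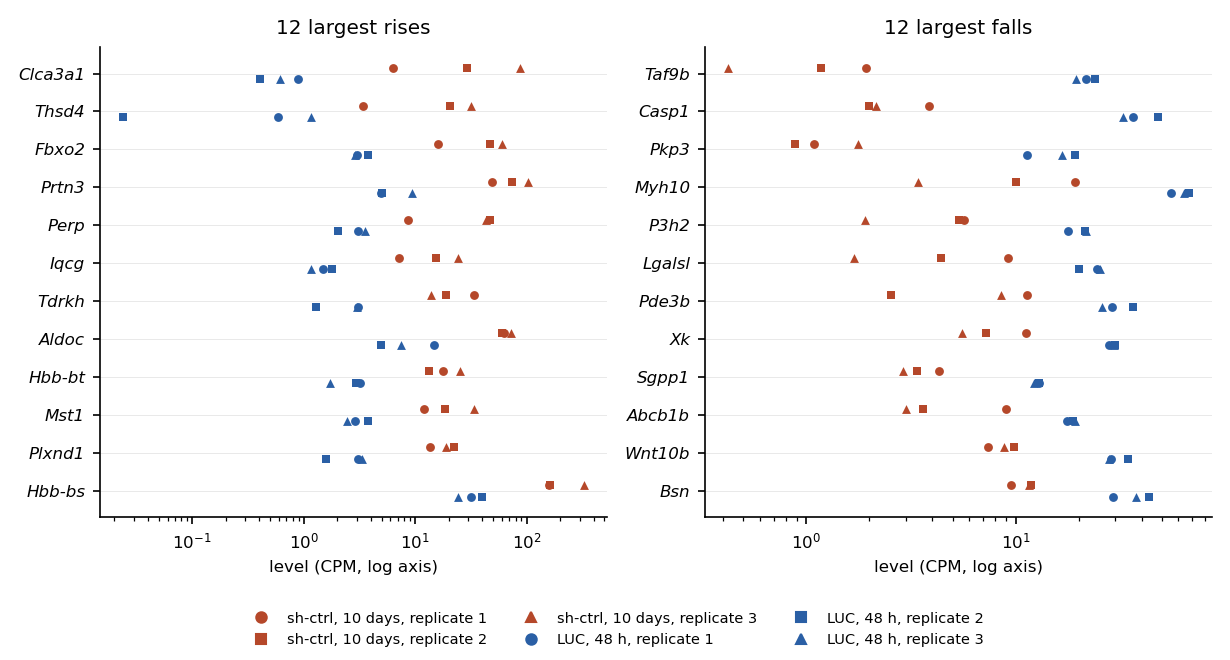
Level (CPM, log axis) in each library of the 12 genes that rose most and the 12 that fell most, red for sh-ctrl and blue for LUC, with the marker shape giving the replicate. In each of the 24 rows the colours do not overlap, and sh-ctrl replicate 1 is the sh-ctrl library nearest to LUC for 9 of the 12 rises and 9 of the 12 falls.

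The largest falls were led by genes close to silent in the 10-day culture. Taf9b, a subunit of the general transcription factor TFIID, was at 1.93, 1.17 and 0.422 CPM in sh-ctrl and at 21.6, 23.9 and 19.5 CPM in LUC. No sh-ctrl library came near the LUC group, and the mean was 18.5 times lower (log2 fold change -4.20 ± 0.43, adjusted p = 0.00177). Casp1, the inflammasome protease that matures interleukin 1, was at 3.86, 1.99 and 2.16 CPM against 36.4, 47.8 and 32.5 CPM. Its log2 fold change was -3.85 ± 0.28, with an adjusted p of 0.000318. Pkp3, the desmosome protein plakophilin, was at 1.09, 0.883 and 1.77 CPM against 11.3, 19.3 and 16.6 CPM (-3.63 ± 0.33, adjusted p = 0.00102). Myh10, the nonmuscle myosin IIB heavy chain that megakaryocytes are known to silence as they become polyploid, was at 19.2, 10.1 and 3.43 CPM against 55.5, 67.4 and 64.1 CPM. The sh-ctrl libraries spread widely for Myh10 without reaching LUC (-2.50 ± 0.47, adjusted p = 0.0102), and the call was lost with all 14 libraries (adjusted p = 0.143).

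Wnt10b, a Wnt ligand, fell tightly, from 28.5, 34.3 and 28.1 CPM in LUC to 7.36, 9.78 and 8.84 CPM in sh-ctrl (-1.80 ± 0.16, adjusted p = 0.000828). Bsn, the presynaptic scaffold bassoon, was at 9.50, 11.9 and 11.6 CPM against 29.1, 43.3 and 37.8 CPM (-1.73 ± 0.17). Xk, the carrier of the Kx red cell antigen, had a log2 fold change of -1.85 ± 0.24, and Sgpp1, a sphingosine phosphate phosphatase, of -1.84 ± 0.21. The collagen hydroxylase P3h2 (-2.24 ± 0.36) kept its call in all 6 fits that leave out a library. Lgalsl (-2.19 ± 0.48), the phosphodiesterase Pde3b (-2.01 ± 0.43) and the drug exporter Abcb1b (-1.83 ± 0.37) did not: without LUC replicate 1 their adjusted p rose to 0.0664 for Lgalsl and 0.0534 for Abcb1b, and without LUC replicate 2 to 0.0616 for Pde3b. Of these 12 genes, 4 overlap another annotated gene (P3h2, Xk, Abcb1b and Bsn).

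Megakaryocyte surface genes were mixed but leaned upward. Of 21 tested, 7 were higher and 2 lower in sh-ctrl (42.9% called, beside 18.8% of all genes), with a median log2 fold change of 0.301. Without a LUC library 3 or 4 were called higher and 1 lower. Over 18 alternatives the list median ran from 0.18 to 0.36. Gp9, a chain of the von Willebrand factor receptor, was at 134, 89.8 and 89.0 CPM in sh-ctrl and at 50.7, 39.9 and 46.9 CPM in LUC. All sh-ctrl libraries lay above LUC (1.20 ± 0.17, adjusted p = 0.00421). Gp1ba, the ligand-binding chain of the same receptor, moved with it (1.04 ± 0.14, adjusted p = 0.0032). Gp1bb, another of its chains, moved against it: 31.1, 36.0 and 26.5 CPM against 48.8, 61.0 and 60.0 CPM. There too the groups were apart, with a log2 fold change of -0.85 and an adjusted p of 0.00641. The thrombin receptor family gene F2rl2 was higher (0.88 ± 0.13, adjusted p = 0.00481). Itga2b was higher by 0.51 ± 0.12 (adjusted p = 0.0198, but 0.1 without LUC replicate 2 and 0.063 with all 14 libraries). Its partner Itgb3 had a fold change of 0.19 ± 0.12 that did not pass (adjusted p = 0.275). In the other groups Itga2b went the opposite way, at 716 to 1230 CPM in shArid3a and miR-125b and at 1500 to 1650 CPM in Arid3a. F2rl2 kept its direction there (231 to 332 CPM against 84.0 to 108 CPM).

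Of 17 platelet granule genes, 4 were called higher and 0 lower (23.5% called, beside 18.8% of all genes), and their median was 0.12. Srgn, the proteoglycan core of granules, was at 420, 382 and 358 CPM against 254, 256 and 265 CPM (0.59 ± 0.10, adjusted p = 0.0067, but 0.0812 with all 14 libraries). Clu, the chaperone clusterin (2.21 ± 0.34, adjusted p = 0.0054), was higher as well, but not with all 14 libraries (adjusted p = 0.17). F13a1, a clotting factor subunit (2.01 ± 0.45), was called with all libraries but not without LUC replicate 1 (adjusted p = 0.0803). Pf4, platelet factor 4, rested on a single library: it was at 2360, 1050 and 1230 CPM in sh-ctrl and at 1140, 1040 and 1200 CPM in LUC. Sh-ctrl replicate 1 alone lay far above LUC, and the gene did not pass (adjusted p = 0.25). Of 16 cytoskeleton genes, 1 was called (6.25%). It was the actin crosslinker Flna, which was lower (342, 525 and 398 CPM against 804, 782 and 721 CPM, -0.86 ± 0.15, adjusted p = 0.0087). Talin (Tln1, 0.09 ± 0.11) and nonmuscle myosin IIA (Myh9, 0.09 ± 0.13) had 95% intervals within -1 and 1.

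Of 17 transcription factors of the lineage tested, 3 were higher and 1 lower (23.5% called, beside 18.8% of all genes), and without a LUC library 1 was called higher and 0 lower. Runx1, the core binding factor of blood formation, was at 162, 157 and 175 CPM in sh-ctrl and at 99.8, 83.8 and 114 CPM in LUC (0.74 ± 0.12, adjusted p = 0.00724). Ldb1, a bridging cofactor of GATA1 complexes, was higher by 0.40 ± 0.10 (adjusted p = 0.0285, but 0.125 without LUC replicate 2). Nfe2 (0.32 ± 0.13), the GATA1 partner Zfpm1 (0.07 ± 0.09) and Tal1 (-0.23 ± 0.10) did not pass. Spi1, the PU.1 gene of the myeloid line, was at 54.9, 33.8 and 38.2 CPM against 16.2, 15.9 and 20 CPM. Its groups were apart, with a log2 fold change of 1.30 ± 0.19 and an adjusted p of 0.00455. The progenitor list gave 2 higher and 1 lower of 9 tested (33.3% called). Its defining markers Cd34, Flt3, Procr and Mecom summed to between 0.272 and 0.475 CPM in sh-ctrl and to between 0.0477 and 2.4 CPM in LUC.

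Most globin genes were higher in sh-ctrl, at modest levels. Of 6 tested, 4 were called higher and 0 lower (66.7% called, beside 18.8% of all genes), with a median log2 fold change of 1.95. Hbb-bs, an adult beta globin chain, was at 159, 162 and 326 CPM in sh-ctrl and at 31.4, 39.5 and 24.2 CPM in LUC. The lowest sh-ctrl library was above the highest LUC library, and the log2 fold change was 2.78 ± 0.30 (adjusted p = 0.00209). Its near copy Hbb-bt followed (2.85 ± 0.31), and reads of these copies may be split between them, as for Hba-a1 and its twin gene. The red cell membrane list had 4 genes higher and 3 lower of 17 (41.2% called, beside 18.8% of all genes). Without a LUC library 1 was higher and 2 or 3 were lower. Tfrc, the transferrin receptor that takes up iron, was at 217, 240 and 248 CPM in sh-ctrl and at 661, 633 and 588 CPM in LUC. Both groups were tight and far apart, and the log2 fold change of -1.41 ± 0.10 had an adjusted p of 0.000318. Kel, the Kell antigen, was higher (1.10 ± 0.21, adjusted p = 0.00993). Klf1, the erythroid Kruppel-like factor, overlapped between the groups (25.5, 19.6 and 42.2 CPM against 18.6, 32.8 and 23.6 CPM). Of 11 heme synthesis genes, 1 was called (9.09%), Ppox (adjusted p = 0.0422, but 0.142 without LUC replicate 2). Slc4a1 and Alas2 were at or near 0 in all 6 libraries.

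Transcripts of the mitochondrial genome were higher in sh-ctrl. Of the 13 protein-coding ones, 12 were called higher and 0 lower (92.3% called, beside 18.8% of all genes). Their median log2 fold change was 1.3. mt-Nd4, a subunit of complex I, was at 1930, 1650 and 2100 CPM in sh-ctrl and at 942, 782 and 760 CPM in LUC. The groups were far apart (1.21 ± 0.13, adjusted p = 0.0021). mt-Nd6, the one such gene on the other strand, moved alike (1.12 ± 0.10, adjusted p = 0.00102). mt-Co1 was the most abundant of them, and there sh-ctrl replicate 2 was near LUC: 16900, 8000 and 16300 CPM against 7350, 7590 and 7130 CPM (0.91 ± 0.25, adjusted p = 0.036, but 0.121 without LUC replicate 1). Mitochondrial genes took 4.54%, 2.53% and 4.34% of the counts of the sh-ctrl libraries and 1.96%, 1.87% and 1.81% of the LUC libraries.

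Cytosolic ribosomal protein genes had 52 of 85 called higher and 1 lower, the pseudogene Rps4l described below, with a median log2 fold change of 0.543. The share called was 62.4% of these and 32.9% of the nuclear respiratory chain genes, beside 18.8% of all genes. Rpl21 was at 569, 627 and 634 CPM in sh-ctrl and at 327, 294 and 292 CPM in LUC (1.01 ± 0.10, adjusted p = 0.00153). The stalk protein Rplp0, in contrast, had overlapping groups and a log2 fold change of 0.06 ± 0.12. Of 79 nuclear genes of the respiratory chain, 25 were higher and 1 lower, with a median of 0.351: the complex I subunit Ndufv3 was higher by 1.14 ± 0.16 (adjusted p = 0.00421), and Atp5b, the catalytic subunit of ATP synthase, had -0.14 ± 0.14. Mitochondrial ribosomal proteins gave 15 higher and 1 lower of 77 (20.8% called, near the 18.8% of all genes). A trend with gene length moved with these lists. Over 5 classes of exon length the median log2 fold change fell step by step from 0.31 in the shortest (57 to 1808 bases) through 0.0964, 0.00251 and -0.0646 to -0.168 in the longest (7033 bases and more). With that trend removed, 26 of 85 cytosolic ribosomal genes were called higher, 8 of 79 nuclear respiratory genes, 9 of 77 mitochondrial ribosomal genes and 10 of 13 mitochondrial-genome genes, and 11 of 20 glycolysis genes. Without a LUC library 11 to 15 cytosolic ribosomal, 6 to 11 nuclear respiratory and 1 mitochondrial ribosomal gene were called higher. The part of the length trend in these counts was not tested further.

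**Figure D4:**
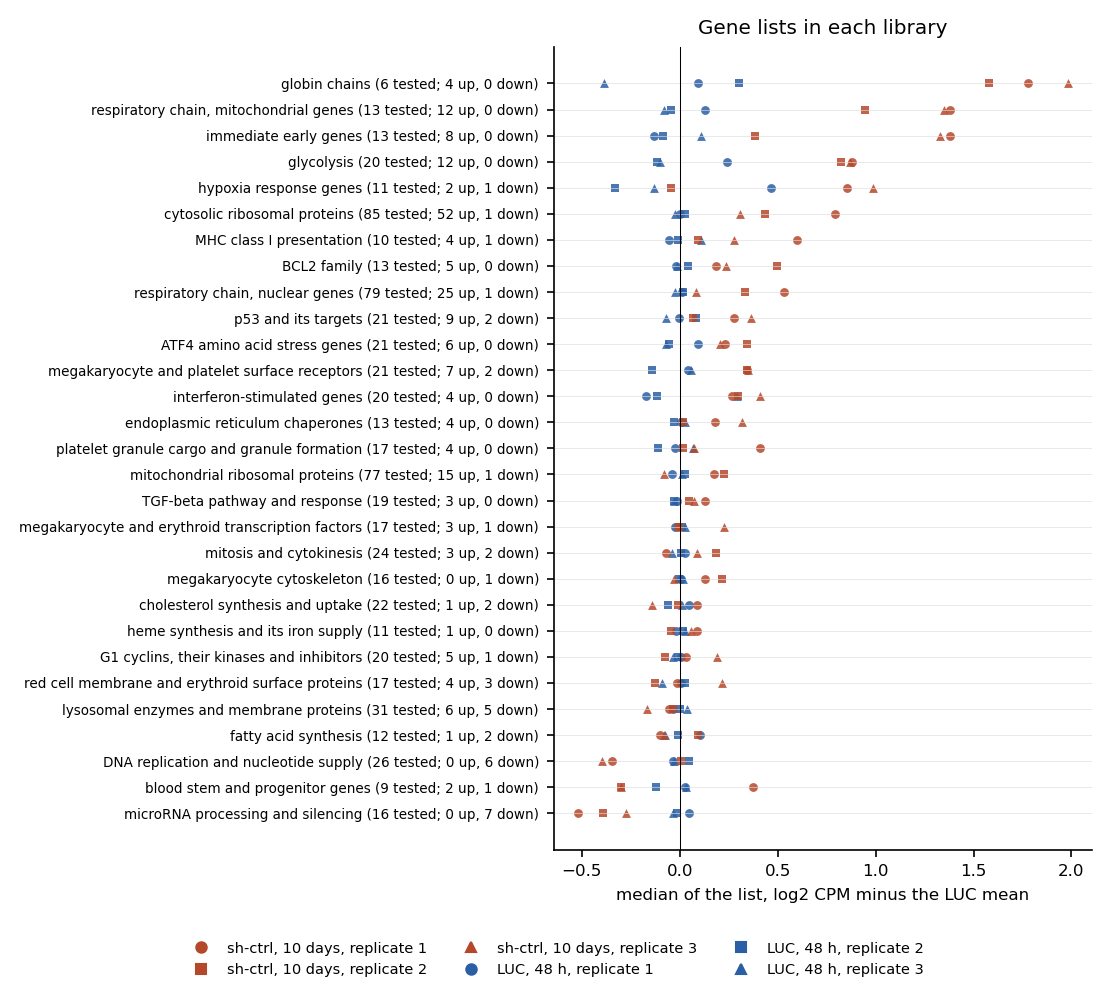
Median over the tested genes of each list, as log2 CPM minus the mean of the LUC libraries (x axis), for each library (red sh-ctrl, blue LUC). All 3 sh-ctrl libraries lie to the right of all LUC libraries for globin, mitochondrial-genome, immediate early and glycolysis genes. The same holds for cytosolic ribosomal, nuclear respiratory, megakaryocyte surface, ATF4, BCL2 family and TGF-beta genes. All 3 lie to the left for microRNA pathway genes, and hypoxia genes overlap.

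Immediate early genes, which are switched on within minutes of a stimulus, were higher in part. Of 13 tested, 8 were called higher and 0 lower (61.5% called, beside 18.8% of all genes), with a median log2 fold change of 1.19. Egr1 was at 171, 66.1 and 403 CPM in sh-ctrl and at 29.0, 34.8 and 55.6 CPM in LUC. The groups did not overlap, but the sh-ctrl libraries spread widely, and the log2 fold change of 2.44 ± 0.56 (adjusted p = 0.0198) was not called without LUC replicate 1 (adjusted p = 0.0921). Ier2 was at 173, 106 and 193 CPM against 59.1, 73.4 and 69.9 CPM (1.23 ± 0.21, adjusted p = 0.00711). Dusp2, a phosphatase of the same class of genes, was higher by 1.60 ± 0.20. Myc, at 248 against 233 CPM, was not (adjusted p = 0.534). With 1 library left out, 2 to 11 genes of the list were called: 2 to 4 without a LUC library and 5 to 11 without a sh-ctrl library.

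Several regulators and secreted factors were far apart with little spread. Id1, an inhibitor of helix-loop-helix factors and a target of BMP signalling, was at 124, 121 and 133 CPM in sh-ctrl and at 39.2, 33.9 and 31.2 CPM in LUC. Both groups were tight (1.87 ± 0.11, adjusted p = 0.000238). Id2 was higher as well (1.32 ± 0.26, adjusted p = 0.0116, but 0.0589 without LUC replicate 1). Only 3 of 19 genes of the TGF-beta list were called (15.8%, near the 18.8% of all genes). Cebpb, a factor of myeloid differentiation and stress, was at 53.3, 55.9 and 56.6 CPM against 17.2, 8.04 and 7.69 CPM (2.35 ± 0.28, adjusted p = 0.00249). The chemokine gene Ccl9 was at 9.38, 10.5 and 9 CPM against 0.560, 0.763 and 0.636 CPM. Its fold change was among the tightest, at 3.88 ± 0.25 (adjusted p = 0.000318). Il1b, the interleukin that Casp1 matures, had a log2 fold change of 2.02 ± 0.36 (adjusted p = 0.00882, but 0.0507 without LUC replicate 1), opposite in sign to that of Casp1.

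Most calls in the stress and antigen-presentation lists were higher. The share called was 28.6% of the ATF4 list, 30.8% of the endoplasmic reticulum list and 50% of the MHC class I list, beside 18.8% of all genes. Among 21 genes of the ATF4 response 6 were higher and 0 lower, Cebpb and Pck2, a mitochondrial enzyme of gluconeogenesis, having the smallest adjusted p (for Pck2 0.79 ± 0.12, adjusted p = 0.00454), while Atf4 itself did not pass (adjusted p = 0.0625). Of 13 endoplasmic reticulum genes, 4 were higher, among them the factor Xbp1 (0.46 ± 0.08), the disulfide isomerase Pdia6 (0.63 ± 0.13) and the chaperone Calr (0.46 ± 0.11), and none of the 13 was called without any 1 of the LUC libraries. Of 10 genes of MHC class I presentation, 4 were higher and 1 lower: the peptide transporter Tap2 was at 93.2, 74.6 and 76.8 CPM against 47.2, 46.9 and 50.4 CPM (0.77 ± 0.11, adjusted p = 0.00421), and B2m did not pass (adjusted p = 0.171). Without a LUC library 1 of these 10 was called higher and 0 lower. Interferon-stimulated genes had 4 of 20 higher and 0 lower (20% called, near the 18.8% of all genes), and 1 to 5 higher without a LUC library. Of 31 lysosomal genes 6 were higher and 5 lower (35.5% called), and 4 or 5 were higher and 1 lower without a LUC library. Grn, the growth factor granulin, had 0.91 ± 0.10 (adjusted p = 0.00206) and the membrane protein Lamp1 -0.45 ± 0.11 (adjusted p = 0.0242, but 0.105 without LUC replicate 2).

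Genes of DNA replication leaned downward in sh-ctrl replicates 1 and 3, and calls among mitotic genes went both ways. Of 26 replication genes, 6 were lower and 0 higher (23.1% called, beside 18.8% of all genes), with a median log2 fold change of -0.197. The list median relative to the LUC mean was -0.346, 0.0061 and -0.399 in sh-ctrl replicates 1 to 3, so replicate 2 lay at the LUC level. Cdc6, which loads the replicative helicase, was at 41.5, 49.3 and 36.1 CPM in sh-ctrl and at 62.1, 70.9 and 66.5 CPM in LUC (-0.64 ± 0.12, adjusted p = 0.0112, but 0.0595 without LUC replicate 2). The groups were apart, and the helicase subunit Mcm4 differed by -0.47 ± 0.11 (adjusted p = 0.0224, but 0.0992 without LUC replicate 2). Pcna, the polymerase clamp, overlapped (558, 628 and 486 CPM against 574, 566 and 538 CPM). Without a sh-ctrl library 4 to 13 genes of this list were called lower, and without a LUC library 0 or 1. Among 24 mitosis genes, 3 were higher and 2 lower (20.8% called, near the 18.8% of all genes), and 0 and 1 without a LUC library. The cytokinesis exchange factor Ect2 fell (-0.80 ± 0.11, adjusted p = 0.00339), and Mki67 (-0.11 ± 0.12) and Top2a (0.12 ± 0.11) had intervals within -1 and 1.

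The cell cycle inhibitor genes Cdkn1a, Cdkn2a and Cdkn2d were higher. Of 20 cyclin, kinase and inhibitor genes, 5 were higher and 1 lower, and 3 were higher without a LUC library. The share called was 30% of these, 52.4% of the p53 list and 38.5% of the BCL2 family, beside 18.8% of all genes. Cdkn1a, the p21 inhibitor that p53 induces, was at 216, 214 and 239 CPM in sh-ctrl and at 141, 151 and 130 CPM in LUC (0.68 ± 0.10, adjusted p = 0.00444). Cdkn2a, the INK4a and ARF locus, was at 64.0, 73.1 and 61.6 CPM against 35.0, 40.4 and 33.4 CPM (0.88 ± 0.11, adjusted p = 0.0029). For both genes all sh-ctrl libraries lay above all LUC libraries, but with all 14 Gata1s libraries in the fit the adjusted p was 0.0838 for Cdkn1a and 0.126 for Cdkn2a. Cdkn2d, a further INK4 inhibitor, had 0.94 ± 0.16 (adjusted p = 0.00774), whereas Cdk6 had 0.01 ± 0.17. Of 21 genes of the p53 list, which includes Cdkn1a, Perp and Bax, 9 were higher and 2 lower (4 higher without a LUC library), and Trp53 itself did not pass (-0.14 ± 0.12). Of 13 BCL2 family genes, 5 were higher and 0 lower (2 higher without a LUC library): the death effector Bax was at 312, 289 and 264 CPM against 169, 194 and 184 CPM (0.67 ± 0.10, adjusted p = 0.00555), and the Noxa gene Pmaip1 had 0.89 ± 0.16 (adjusted p = 0.00973).

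Part of the microRNA pathway was lower. Of 16 tested, 7 were lower and 0 higher (43.8% called, beside 18.8% of all genes), with a median of -0.349. Without a LUC library 1 to 3 were called lower. Ago2, the slicing Argonaute protein, was at 82.0, 83.9 and 101 CPM in sh-ctrl and at 162, 143 and 152 CPM in LUC. The groups were well apart (-0.76 ± 0.11, adjusted p = 0.00439). Xpo5, the exporter of microRNA precursors, differed by -0.68 ± 0.13 (adjusted p = 0.0114, but 0.0534 without LUC replicate 1), and the silencing scaffold Tnrc6b by -0.54 ± 0.11 (adjusted p = 0.0131, but 0.0652 without LUC replicate 2). None of the 16 lies in the shortest length class, and with the length trend removed 3 of 16 were called lower. Whether these values go with the hairpin, with the time on doxycycline or with the table cannot be told apart. Of 4 genes tested of the fetal program, 1 was higher and 1 lower (50% called, beside 18.8% of all genes). Sox6, a SOX transcription factor of red cell maturation, was at 8.54, 9.81 and 12.6 CPM in sh-ctrl and at 3.47, 4.20 and 4.74 CPM in LUC (1.33 ± 0.23, adjusted p = 0.00809). The RNA-binding gene Igf2bp3 was at 33.1, 31.6 and 29.2 CPM against 50, 54.8 and 53 CPM (-0.74, adjusted p = 0.00327, but 0.0515 with all 14 libraries), and Lin28b, the blocker of let-7 processing, at 23.8, 45 and 41.4 CPM against 67.3, 56.2 and 51.2 CPM, did not pass (adjusted p = 0.0633).

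A few genes were at or next to 0 in sh-ctrl and counted in every LUC library. Rps4l, annotated as a transcribed processed pseudogene and close to Rps4x, with which reads may be shared, had 1, 0 and 0 counts in sh-ctrl and 99, 185 and 137 counts in LUC. Gpnmb, a membrane glycoprotein of lysosomes, had 1, 4 and 0 counts in sh-ctrl and 162, 186 and 57 in LUC. Ctss, the macrophage cathepsin S, had 0 counts in each sh-ctrl library and 18, 14 and 50 in LUC. These genes passed the count filter only through LUC, so no test is given. Their calls are still part of the 2518 genes called and the 727 large differences. Rps4l is the 1 cytosolic ribosomal gene counted as lower, and Gpnmb is among the 5 lysosomal genes counted as lower. All 3 genes also had no count in the 5 other 10-day libraries, while the 3 Arid3a libraries gave 1.66, 5.57 and 3.62 CPM of Rps4l, 0.245, 2.76 and 10.7 CPM of Gpnmb and 0.049, 0.135 and 1.84 CPM of Ctss. The 5 defining macrophage markers summed to 0.302, 0.568 and 0.712 CPM in sh-ctrl and to 0.666, 0.549 and 2.78 CPM in LUC, and their part in the Ctss values was not tested.

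The 8 other Gata1s libraries give the same contrast of time and table with other transgenes. Of all 13399 genes, 5615 (41.9%) had their 5 shArid3a and miR-125b libraries wholly on the same side of the 3 Arid3a libraries as sh-ctrl was of LUC. Of the 522 genes with a large rise the share was 42.1% (220 genes), beside 40.5% of all genes with a fold change above 0. Of the 205 with a large fall it was 64.9% (133 genes), beside 43.4% of all genes with a fold change below 0. Taf9b was at 4.25 and 1.79 CPM in shArid3a, at 3.69, 0.234 and 0.243 CPM in miR-125b and at 19.1, 23.1 and 20.4 CPM in Arid3a libraries. Casp1, Pkp3, P3h2, Lgalsl, Xk, Sgpp1 and Bsn also lay wholly apart on that side, 8 of the 12 largest falls with Taf9b. Myh10 did not, with 55.9 CPM in shArid3a replicate 1. Of the 12 largest rises, 4 were wholly apart (Clca3a1, Thsd4, Fbxo2 and Prtn3). Hbb-bs was not: it was at 124 and 205 CPM in shArid3a, but at 19.4, 53.1 and 66.4 CPM in miR-125b and at 30.7, 68.4 and 54.7 CPM in Arid3a libraries. Aldoc also overlapped there, through Arid3a replicate 1 with 49.3 CPM, whereas Aldoa was at 1960 to 3210 CPM in the 10-day libraries and at 677 to 1380 CPM in the Arid3a libraries.

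Chromosome 12 stood apart from all other chromosomes in 2 of the 3 sh-ctrl libraries. The median log2 level of its 311 genes whose average log2 CPM was 3 or more, relative to the LUC mean, was 0.27 in sh-ctrl replicate 2 and 0.35 in replicate 3, but -0.08 in replicate 1. The 19 other chromosomes had medians between -0.13 and 0.05 in these libraries. The same was seen in shArid3a replicate 3 (0.23) and in miR-125b replicates 2 and 3 (0.45 in both), and not in shArid3a replicate 1 (-0.04), miR-125b replicate 1 (-0.07) or any 48 h library (-0.04 to 0.05). Replicate 1 of sh-ctrl, shArid3a and miR-125b, the 10-day libraries without the shift, also had the most Eif2s3y of the 14 libraries (49.8, 81.5 and 74.5 CPM). Whether same-numbered 10-day libraries share a source was not tested. Of the 311 genes, 21.9% were called higher, against 8.38% to 17.3% on other chromosomes, and 1.93% lower, against 7.24% to 15.4%. The median log2 fold change of the chromosome was 0.23 with all libraries, 0.35 without sh-ctrl replicate 1, 0.171 without replicate 2 and 0.108 without replicate 3. Among genes described here, Id2, Pdia6 and Sgpp1 lie on chromosome 12. Leaving the chromosome out of the fit gave 2462 calls, and the cause of the shift was not tested.

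**Figure D5:**
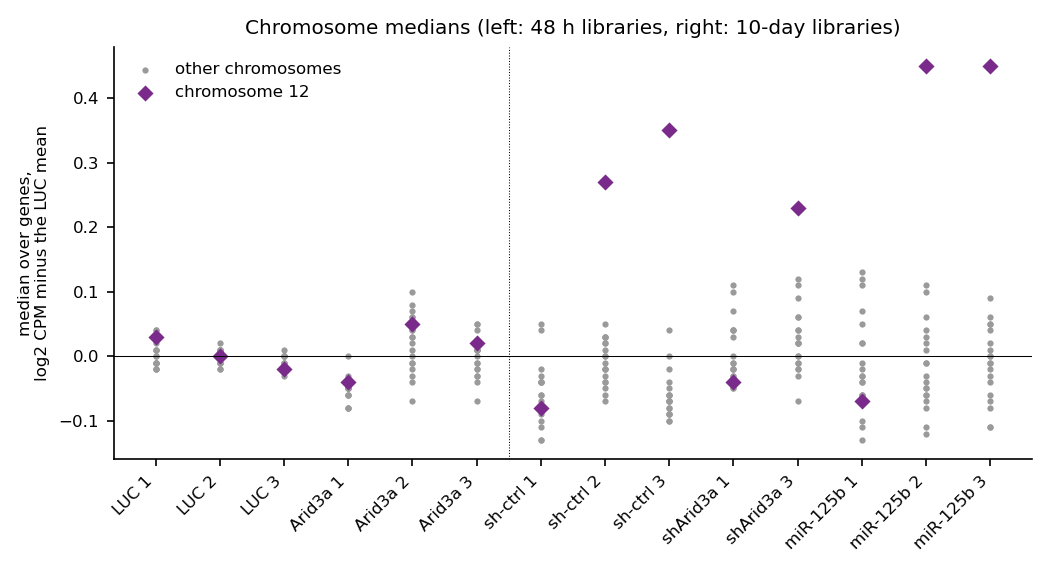
Median over genes of log2 CPM minus the LUC mean (y axis), per chromosome (grey points, chromosome 12 as a diamond) in each of the 14 Gata1s libraries, those of 48 h to the left of the dotted line. Chromosome 12 lies at 0.23 to 0.45 in 5 of the 8 10-day libraries and among the other chromosomes in the rest.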

How the data were processed

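RNA-seq libraries of mouse fetal liver cells were compared from 2 tables of counts per gene. Per the submitters' processing notes, reads were processed with fastp, HISAT2 version 2.0.5 and featureCounts against mm10; the role and settings of each, and use of strand, are not given in the sources used here. The deposited values are raw counts as the authors made them, not normalized. Both tables hold the same 47069 gene IDs, of which 46574 matched GENCODE release M21, and they were joined by ID.

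The 3 sh-ctrl and 3 LUC libraries were filtered (filterByExpr), scaled by TMM and tested with edgeR 4.0.16 (R 4.3.3) by its quasi-likelihood test, with Benjamini-Hochberg adjustment over all 13399 genes tested and a threshold of 0.05. Values after ± beside a fold change are SE. Levels are CPM with TMM factors over the 14 Gata1s libraries. The test was also run on simulated counts in which both groups had the same spread per gene. That run does not cover the unequal spread of the sh-ctrl and LUC libraries. Alternatives were RLE and library totals as scaling, other filters, DESeq2 1.42.0, a replicate block, all 14 libraries and each library left out. Removal of the gene length trend and of chromosome 12 were chosen after seeing the data.

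Named genes are Arid3a and Gata1, the 12 largest rises and 12 largest falls among abundant protein-coding genes called without overlap, the 10 most abundant per kilobase, the 3 with the smallest adjusted p and the 3 most abundant of each gene list, and defining markers. Gapdh and Eif2s3y lie outside this rule and were picked with their values known. The members and lists were chosen with earlier results of these data known. Same-numbered libraries are not given a shared source by the labels. A few genes the rule names are not reported here.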

Additional observations from a re-analysis of the deposited data

How the results depend on the processing

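The count of 2518 genes called stayed within 1.5 times of itself under RLE scaling (2498), library totals (2937), DESeq2 (3247) and no filter (2743). It was 1517 with all 14 Gata1s libraries and 1662 with the gene length trend removed, and from 648 to 2956 with 1 library left out. The 727 large differences became 339 to 867 with 1 library left out, and 42 in a test against a log2 fold change of 1 (glmTreat). The share of large differences also seen in other Gata1s groups was 48.6% with both 10-day groups, beside 41.9% of all genes. It was 66.6% with shArid3a alone and 54.7% with miR-125b alone, which ask fewer libraries to lie apart. Among all genes with a fold change above 0 and below 0, it was 50.4% and 53% with shArid3a alone. With miR-125b alone these shares of all genes were 46.2% and 51.3%. The cause of the other changes was not tested. With the replicate number as a replicate block, 2077 genes were called and 665 differences were large. Deviations of same-numbered libraries correlated at -0.00374, 0.116 and -0.0634, so the numbers were not taken to pair the libraries. Of 87 named genes called, 54 kept the call in every alternative that gave the gene a value (17 or 18 each), 33 lost it in at least 1, and 0 reversed. With 3 libraries a group, small differences in genes of few counts could not be resolved.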

Other observations

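Mast cell markers were uneven within the 10-day controls. Tpsb2, a mast cell tryptase, was at 32.2, 1.48 and 29.7 CPM in sh-ctrl replicates 1 to 3 and at 3.39, 5.51 and 0.636 CPM in LUC. Cpa3, the mast cell carboxypeptidase, was at 23.2, 5.24 and 33.0 CPM in sh-ctrl and at 16.9, 16.7 and 27.5 CPM in LUC, so that sh-ctrl replicate 2 was the lowest library for it. These values belong to no comparison above.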
